A study of Rattus norvegicus with 12 samples.

Results

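Liver RNA of 8 male Brown Norway rats killed 6 h after D-penicillamine was examined for how much the animals differed from one another. D-penicillamine is a thiol-containing amino acid given to people as a copper chelator and antirheumatic drug. The 8 arrays labelled as treated liver, of 12 in the series, were used, and no comparison with the vehicle rats was made. Each rat weighed 150 to 170 g and received a single oral gavage of 150 mg/kg in 1 mL of tap water. All 8 came from 1 inbred strain without any engineered allele, were housed in pairs on a 12:12 h light cycle and were offered chow. The labels do not state whether the rats had eaten, the clock time of killing or which rats shared a cage.

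RNA levels were measured on Affymetrix rat expression arrays, 1 array per rat, with 10 µg of total RNA from frozen liver. The values are RMA signals on the log2 scale, so a difference of 1 means 2-fold, and levels of different probe sets are not set against each other. Of 15866 probe sets other than array controls, the 5636 with a mean of at least 7 over the 8 livers were kept (35.5%). The probe sets next to that limit averaged 7.00 inside and 6.99875 outside. Those kept with 1 gene symbol numbered 4883 and cover 4410 genes, while 196 carried several symbols and 557 none. A gene is given by its probe set with the highest mean unless stated, and an SD is over the 8 rats on the log2 scale.

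Hepatic RNA follows food, time of day, stress hormones and inflammation within hours. Igfbp1, which encodes an insulin-like growth factor binding protein, is repressed by insulin. Lcn2 encodes lipocalin-2, an iron-siderophore binding protein made in inflammation. Mt2A encodes a metallothionein, a thiol-rich protein that binds zinc and copper and is induced by metals and glucocorticoids. Nqo1, a quinone reductase, is a target of the oxidant-responsive factor NRF2. Hamp encodes hepcidin, the hormone that blocks iron export and responds to iron through BMP signals and to interleukin-6 through STAT3.

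The promoters of 4 of these genes are shown because each is known to be read by a different signal. Sequences are from RefSeq, build GRCr8, 250 bases up to the transcription start, written 5′ to 3′ on the gene's strand. Capitals mark matches, on either strand, to 1 short motif per gene, or a pair of motifs for Hamp. For Igfbp1 (chr14:86261027-86261276, plus strand) the motif is CAAAACA, an insulin response core. For Lcn2 (chr3:36081781-36082030, minus strand) it is GGG, any 5 bases, then CC, a loose NF-kB motif. For Mt2A (chr19:10838709-10838958, minus strand) it is TGCNCNC, a metal response core. For Hamp (chr1:95300272-95300521, minus strand) they are TTCNNNGAA, a STAT motif, and GGCGCC, a BMP response motif.
Igfbp1: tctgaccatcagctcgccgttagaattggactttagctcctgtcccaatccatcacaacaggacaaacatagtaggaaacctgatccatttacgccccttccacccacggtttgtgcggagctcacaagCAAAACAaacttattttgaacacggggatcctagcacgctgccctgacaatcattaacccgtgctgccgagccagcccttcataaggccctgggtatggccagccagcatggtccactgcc
Lcn2: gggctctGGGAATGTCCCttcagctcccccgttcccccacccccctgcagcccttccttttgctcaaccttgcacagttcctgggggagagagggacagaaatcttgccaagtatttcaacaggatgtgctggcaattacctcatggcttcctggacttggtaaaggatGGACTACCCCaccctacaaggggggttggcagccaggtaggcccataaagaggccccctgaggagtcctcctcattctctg
Mt2A: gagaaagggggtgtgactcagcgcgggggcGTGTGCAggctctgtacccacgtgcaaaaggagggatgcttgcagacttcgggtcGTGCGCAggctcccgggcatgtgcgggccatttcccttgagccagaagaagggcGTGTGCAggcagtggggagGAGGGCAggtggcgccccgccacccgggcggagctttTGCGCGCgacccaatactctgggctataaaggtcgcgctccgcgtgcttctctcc
Hamp: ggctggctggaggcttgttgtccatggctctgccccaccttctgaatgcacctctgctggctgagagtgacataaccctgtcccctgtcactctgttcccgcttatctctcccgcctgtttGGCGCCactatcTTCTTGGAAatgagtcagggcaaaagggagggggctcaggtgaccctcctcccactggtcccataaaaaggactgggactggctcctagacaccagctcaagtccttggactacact

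The insulin response core was present 1 time in the Igfbp1 window, and 5.46% of 33469 rat promoter windows of that length held it. The Lcn2 window held 3 NF-kB matches, of which 2 overlap. Any such match occurred in 42.3% of windows and at least as many in 9.97%. The Mt2A window held 5 metal response cores, which is matched or exceeded in 0.370% of windows, while 43.4% held at least 1. The STAT and BMP motifs of Hamp each occurred 1 time, in windows of which 7.67% and 8.69% hold them. In the Nqo1 window the antioxidant response core TGACNNNGC, held by 10.1% of windows, was not found. These matches describe letters only and do not show that a factor binds there.

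Most transcripts differed little between the 8 livers. The median SD over the probe sets kept was 0.117, with a 5th percentile of 0.0554 and a 95th of 0.260. An SD of at least 0.5 was taken as large, and 47 of 5636 probe sets reached it (0.834%). With 8 rats, the 95% interval of an SD runs from 0.661 to 2.04 times its value if values are normally distributed. Just inside the limit lay Angptl4 at 0.504 and an unnamed probe set at 0.502. Just outside it were Pnrc1 at 0.495 and Gclm at 0.492. The gap from highest to lowest rat was at least 2-fold for 151 probe sets (2.68%).

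**Figure D1:**
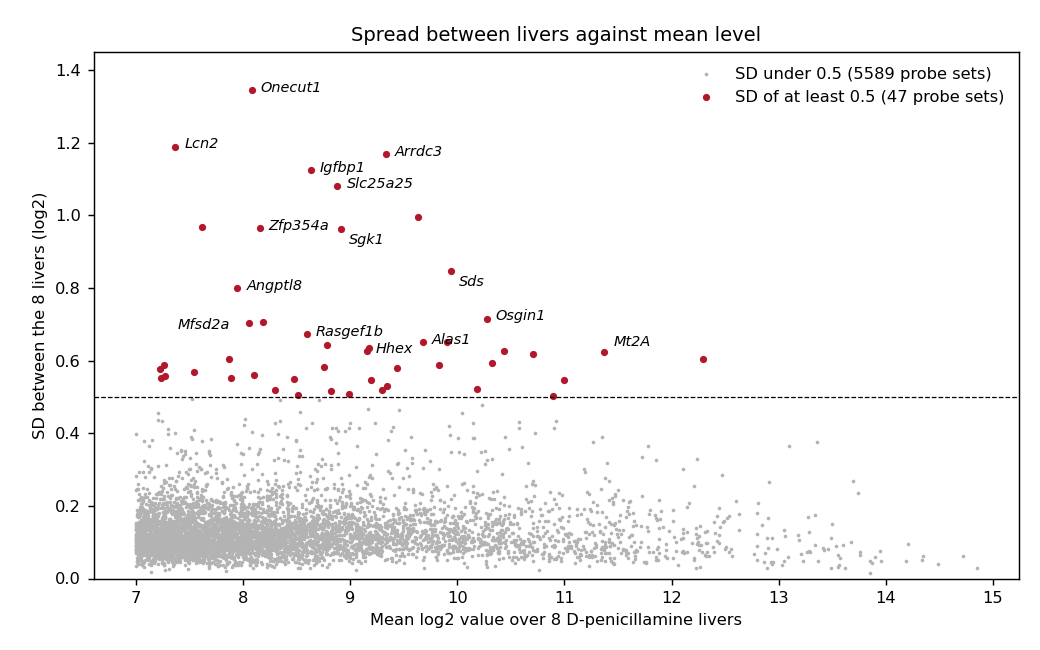
SD between the 8 D-penicillamine livers (log2, vertical) against mean log2 value (horizontal) for each of 5636 probe sets. Red points are the 47 with an SD of at least 0.5, which have means of 7.23 to 12.30, below the 100 kept probe sets of highest mean, with Onecut1 at the top at 1.35.

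The 47 probe sets comprised 38 with 1 symbol from 35 genes, 3 with several symbols and 6 with none. By their highest-mean probe sets, 33 of 4410 genes were called (0.748%). Obp3, an odorant-binding lipocalin, and Slco1a4, an organic anion and bile acid transporter, entered only through a second probe set. Where a called gene had another probe set, the patterns over rats were alike. Both Onecut1 probe sets correlated at 0.979, and the 3 Thrsp probe sets at 0.995 and 0.996. Those of Idi1 correlated at 0.915, with an SD of 0.568 for the one used and 0.302 for the other. Of the 47, 21 kept an SD of at least 0.5 whichever rat was left out.

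The livers carried the markers of hepatocytes, with a spread close to that of all genes. All 13 measured hepatocyte markers were kept, at a median SD of 0.101 against 0.116 over all genes. Tat alone was called, where 0.748% of all genes were, and albumin lay between 14.80 and 14.88 in the 8 rats. Of the Kupffer cell and macrophage markers, 11 of 12 were kept and none was called, with a highest SD of 0.173 for Cd74. Among exocrine pancreas markers 2 of 16 were kept and neither was called. Rat 4 stood apart from the rest over the whole array. Its root mean square distance from the mean liver was 0.232, against 0.121 to 0.172 in the other rats, and its median correlation with the others was 0.980 against 0.987 to 0.991. The first principal component held 34.6% of the variance, with a score of 15.3 for rat 4 and of -5.68 to 3.36 for the others.

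Rat 7 held 13 of the highest or lowest values among the 33 called genes, rat 4 held 11 and rat 3 held 10. Without rat 4, 25 of the 33 kept an SD of at least 0.5, and 28 to 32 did without each other rat. The rats that stand out thus differ from gene to gene, as the plot of deviations by rat shows.

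**Figure D2:**
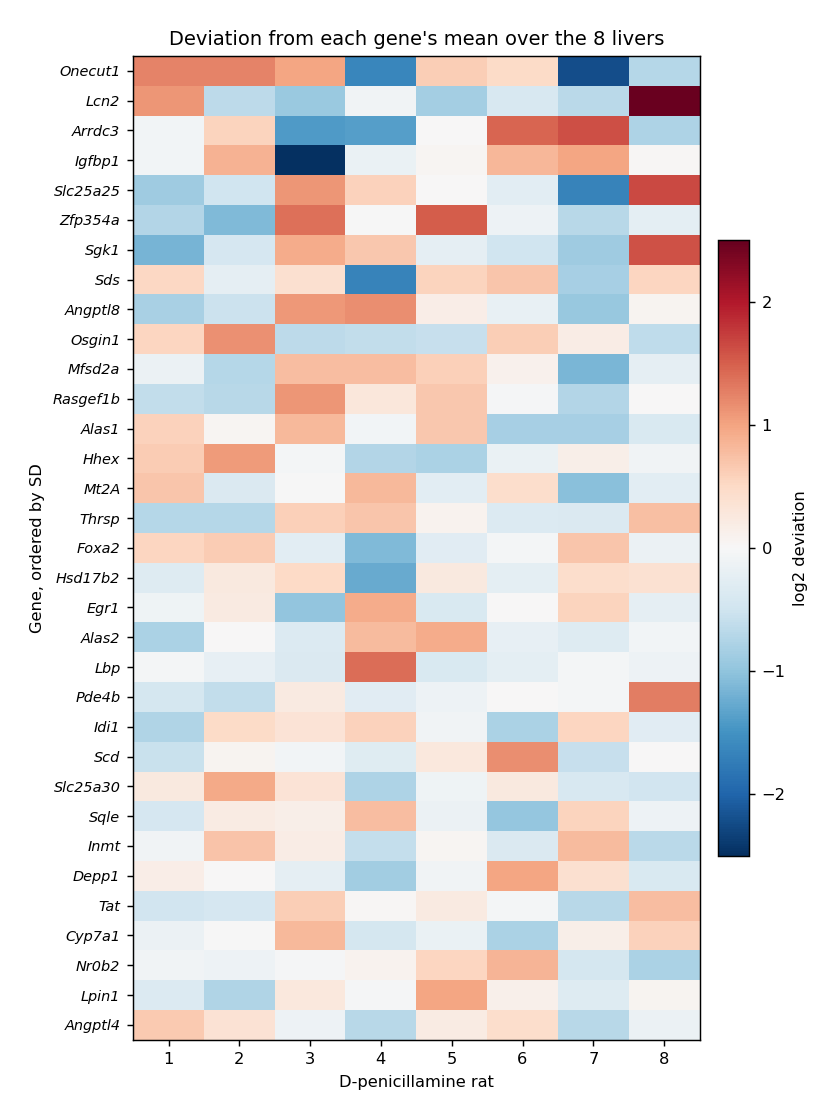
Deviation of each D-penicillamine rat (columns 1 to 8) from the gene's mean over the 8 livers, on the log2 scale (colour, red higher and blue lower), for the 33 genes called, ordered by SD. Rat 7 is the lowest for Onecut1, rat 3 for Igfbp1 and rat 8 the highest for Lcn2.

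The largest SD belonged to Onecut1, the hepatocyte transcription factor HNF6. Its log2 values in rats 1 to 8 were 9.33, 9.32, 9.06, 6.46, 8.69, 8.56, 5.87 and 7.37 (SD 1.35). Rats 7 and 4 were far below the rest and rat 8 lay between, a span of 11-fold. Angptl4, which encodes a lipoprotein lipase inhibitor raised in fasting, followed it at r = 0.887 (Spearman's rho 0.833, exact permutation p = 0.00454, adjusted p = 0.189 over 528 pairs of called genes), and at 0.578 without the 2 rats farthest from the median. Angptl4 ran from 7.82 in rat 7 and 7.83 in rat 4 to 9.17 in rat 1.

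Other regulators of liver genes were also called. Foxa2, a pioneer factor of the liver, had the values 8.41, 8.50, 7.60, 6.76, 7.59, 7.83, 8.56 and 7.73 (SD 0.61). Rat 4 was lowest, and rats 1, 2 and 7 were highest. Hhex, a homeobox factor, was highest in rat 2 at 10.22 and lowest in rat 5 at 8.37, with rat 4 next at 8.42. Foxa2 and Hhex had r = 0.820 (rho 0.810, adjusted p = 0.286 by exact permutation, and r = 0.919 without the 2 farthest rats). Nr0b2, the repressor SHP of bile acid synthesis, ran from 7.51 in rat 8 to 9.16 in rat 6. Cyp7a1, the rate-limiting enzyme of that synthesis, was lowest in rat 6 at 8.51 and highest in rats 3 and 8 at 10.11 and 9.88. Nr0b2 with Cyp7a1 had r = -0.716 (rho -0.738, adjusted p = 0.40 by exact permutation, and r = -0.822 without the 2 farthest rats). Without rat 4 the SD of Foxa2 was 0.44, below the limit.

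Igfbp1 spanned 11.5-fold. Its values were 8.56, 9.50, 6.11, 8.47, 8.69, 9.47, 9.63 and 8.66 (SD 1.12, 95% interval 0.743 to 2.29). Rat 3 alone was far below the others, and without it the SD was 0.51. Among the 7 other rats, rats 2, 6 and 7 were the highest.

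Arrdc3, an arrestin-domain protein that regulates adrenergic receptors, had the values 9.26, 9.90, 7.91, 7.96, 9.35, 10.79, 10.95 and 8.56 (SD 1.17). Rats 6 and 7 were highest and rats 3 and 4 lowest. Against Igfbp1 it had r = 0.774 and rho = 0.952 (adjusted p = 0.189 by exact permutation on r and 0.12 on rho, and r = 0.724 without the 2 farthest rats). Depp1, a FOXO target in mouse and human cells, correlated with Arrdc3 at r = 0.864 (rho 0.833, adjusted p = 0.189 by exact permutation, and r = 0.743 without the 2 farthest rats). By limma's slope on Igfbp1 over 5635 other probe sets, 0 passed an adjusted p of 0.05 (0%). At an unadjusted p below 0.05, limma found 77 of the 5635, a share below the 0.05 that such a limit passes by chance. That count depended on rat 3, which was far below the others for Igfbp1. Without rat 3, 1136 of 5643 had an unadjusted limma p below 0.05, a share above 0.05. Of these 0 passed adjustment, with a smallest adjusted p of 0.0993. Leaving out each other rat gave 54 to 98 at the unadjusted limit.

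The genes whose pattern was most like that of Igfbp1 over the 8 rats included Efna1, an ephrin ligand, at r = 0.863 (rho 0.905, and r = 0.936 without rats 3 and 7). Efna1 ran from 7.14 in rat 3 to 7.96 in rat 7. Those running the opposite way included Insig1, which holds the sterol sensor SCAP in the endoplasmic reticulum, at r = -0.852, and Usp2, a deubiquitinase with a daily rhythm, at -0.838. Without rats 3 and 7 these were -0.540 and -0.820. Of 19 measured genes on the fasting, insulin and glucagon list, 14 were kept and 4 were called (Igfbp1, Sds, Tat and Angptl4), where 0.748% of all genes were. The median SD was 0.306 against 0.116 over all genes. Pck1, the gluconeogenic enzyme, had an SD of 0.17 with values from 12.14 in rat 7 to 12.64 in rat 3.

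A group of 4 called genes varied together: Sgk1, Slc25a25, Tat and Thrsp, with a mean pairwise r of 0.900. Sgk1 is a kinase induced by glucocorticoids, Slc25a25 a mitochondrial ATP-magnesium carrier, Tat tyrosine aminotransferase and Thrsp the lipogenic protein Spot 14. The group was drawn from these values, so its r is a description. Leaving out each rat gave 0.861 to 0.926.

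Sgk1 had the values 7.76, 8.50, 9.84, 9.59, 8.69, 8.42, 8.03 and 10.52 (SD 0.96). Slc25a25 had 8.00, 8.38, 9.99, 9.45, 8.89, 8.61, 7.21 and 10.53 (SD 1.08). Rats 8, 3 and 4 were the highest for both genes, and rats 1 and 7 were among the lowest 2 each time. Tat ranged from 9.49 in rat 7 to 10.95 in rat 8, and Thrsp from 9.99 in rat 2 to 11.45 in rat 8.

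Of the 528 pairs among the 33 called genes, 17 had r of at least 0.8 (3.22%) and 12 had r of -0.8 or below (2.27%). Over all gene pairs the shares were 3.44% and 1.35%. By exact permutation of the rats with Benjamini-Hochberg adjustment, 5 pairs passed an adjusted p of 0.05 on Pearson's r (0.947%), and by Spearman's rho 0 did, with a smallest adjusted p of 0.105. The 33 genes were chosen for a wide spread, so the count describes these genes only. Slc25a25 with Tat gave r = 0.956 (rho 0.976, adjusted p = 0.0445, and r = 0.908 without the 2 farthest rats). Sgk1 with Slc25a25 gave r = 0.948 (rho 0.952, adjusted p = 0.0445 by exact permutation, and 0.854 without the 2 farthest rats).

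Osgin1, an NRF2-responsive growth inhibitor induced by oxidative stress, ran against Thrsp of this group most closely. Its values were 10.82, 11.42, 9.61, 9.66, 9.70, 10.89, 10.46 and 9.63 (SD 0.72). Rats 3, 4, 5 and 8 lay within 0.1 of one another at the low end, and rats 1, 2, 6 and 7 were all higher. Against Thrsp it had r = -0.919 (rho -0.857, exact permutation p = 0.00489, adjusted p = 0.189, and r = -0.938 without the 2 farthest rats). Its r was -0.746 with Tat, -0.728 with Sgk1 and -0.681 with Slc25a25 (adjusted p of 0.40, 0.40 and 0.42 by exact permutation). Without the 2 farthest rats these were -0.856, -0.860 and -0.832. Glucocorticoid targets as a list had 6 of 16 kept members called (Sgk1, Tat, Mt2A, Lcn2, Angptl4 and Sds), with a median SD of 0.328. Over all genes 0.748% were called and the median SD was 0.116. Tat, Angptl4 and Sds are also on the fasting list, and Mt2A and Lcn2 are among the markers. The list was chosen with earlier results of these data known. Its median pairwise r was 0.208 against 0.127 over all gene pairs.

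Tsc22d3, which encodes the glucocorticoid-induced leucine zipper, ran from 7.65 in rat 1 to 8.98 in rat 3, and lay at 8.37 in rat 8. Per1, a clock gene that glucocorticoids also induce, had an SD of only 0.12. Of 8 kept clock genes none was called, where 0.748% of all genes were. Their median SD was 0.269 against 0.116 over all genes. Nr1d1, the clock repressor REV-ERB alpha, was lowest in rat 4 at 7.12 and highest in rats 2 and 6 at 8.12.

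**Figure D3:**
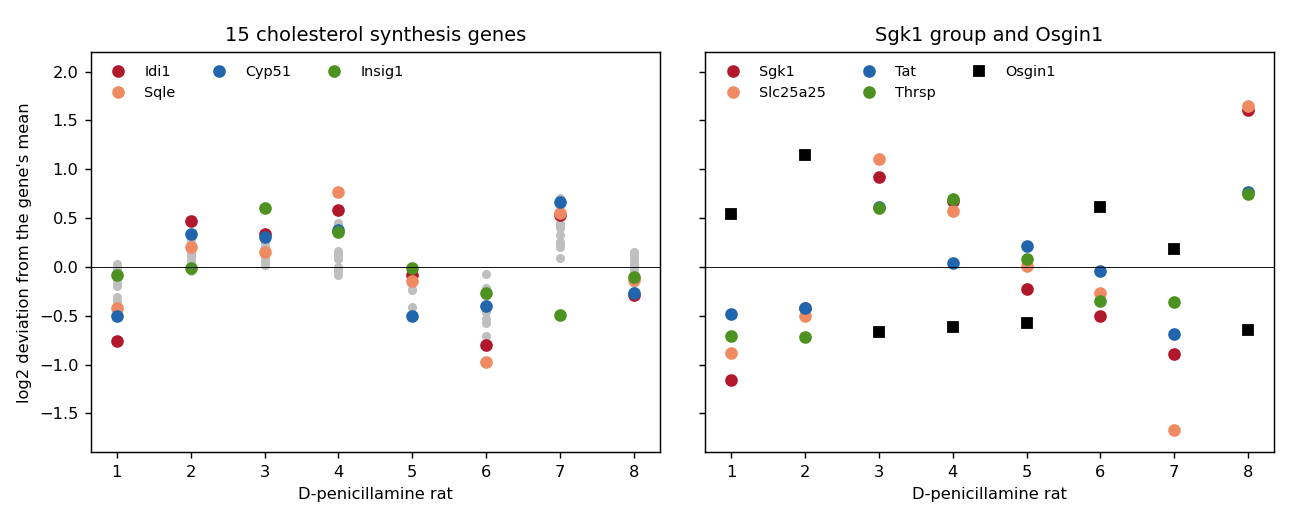
Deviation from each gene's mean (log2) in D-penicillamine rats 1 to 8, with grey points for the other kept genes of the cholesterol synthesis list (left) and the Sgk1 group with Osgin1 as black squares (right). On average the sterol genes are low in rats 1 and 6 and high in rats 4 and 7, with Insig1 at its lowest in rat 7, and Osgin1 is low in rats 3, 4, 5 and 8.

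A second group held Zfp354a, a zinc finger repressor, Rasgef1b, a guanine nucleotide exchange factor, and Lpin1, a phosphatidate phosphatase and coregulator of fat oxidation. Their mean pairwise r was 0.874, with 0.845 to 0.927 on leaving out each rat. Zfp354a had the values 7.43, 7.06, 9.54, 8.14, 9.68, 8.03, 7.46 and 7.92 (SD 0.97). Rats 3 and 5 were high and the others were at least 1.4 lower. Lpin1 was highest in rat 5 at 9.82, followed by rat 3 at 9.08, and its r with Zfp354a was 0.898 (rho 0.929, adjusted p = 0.0445 by exact permutation, and 0.818 without the 2 farthest rats).

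Angptl8, a lipoprotein lipase regulator raised by feeding and insulin, had the values 7.13, 7.41, 9.04, 9.12, 8.12, 7.76, 7.01 and 8.01 (SD 0.80). Rats 3 and 4 were highest, and rats 7, 1 and 2 lowest. It ran against Foxa2 at r = -0.906 (rho -0.952, adjusted p = 0.0445 by exact permutation, and -0.953 without the 2 farthest rats). Mfsd2a, a lysophospholipid transporter, had r = 0.864 with Angptl8 (rho 0.857, adjusted p = 0.189 by exact permutation, and 0.757 without the 2 farthest rats) and was lowest in rat 7 at 6.91 and highest in rat 3 at 8.84.

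Lipogenic genes had their own spread. Of 13 kept on that list, Thrsp and Scd, the stearoyl-CoA desaturase, were called, where 0.748% of all genes were. Scd was highest in rat 6 at 8.44, with the others between 6.70 and 7.55, and its SD without rat 6 was 0.32. The list's mean deviation was lowest in rat 1 at -0.39 and highest in rat 8 at 0.29.

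Cholesterol synthesis genes varied together between the rats. Of 16 measured, 15 were kept and 2 were called: Idi1, isopentenyl diphosphate isomerase, and Sqle, squalene epoxidase. Of all genes 0.748% were called. Idi1 had the values 6.79, 8.02, 7.88, 8.13, 7.46, 6.75, 8.08 and 7.26 (SD 0.57, and 0.30 by its other probe set). Sqle had 6.81, 7.44, 7.39, 8.00, 7.09, 6.26, 7.79 and 7.10 (SD 0.55). Rats 4 and 7 were high and rats 6 and 1 low for both.

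Idi1 and Sqle correlated at r = 0.931 (rho 0.976, adjusted p = 0.0262 by exact permutation, with an unadjusted p of 4.96e-05, the smallest that the pairings can give). Without the 2 farthest rats r was 0.879. Over the 15 kept genes the median pairwise r was 0.786, and 0.719 to 0.834 on leaving out each rat. The mean deviation of the list was lowest in rat 6 at -0.42 and highest in rat 7 at 0.33. Insig1 differed from the rest: it was highest in rat 3 at 10.66 and lowest in rat 7 at 9.57.

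Sds, serine dehydratase of amino acid breakdown, had the values 10.47, 9.73, 10.35, 8.28, 10.51, 10.63, 9.12 and 10.48 (SD 0.85). Rat 4 was lowest and rat 7 next, while 5 rats lay within 0.3 of one another at the top. Sds ran against Sqle at r = -0.844 (rho -0.929, adjusted p = 0.189 by exact permutation, and r = -0.680 without the 2 farthest rats). Hsd17b2, which inactivates oestradiol and testosterone, was 9.06 in rat 4 and 10.01 to 10.83 in the others, and its SD without rat 4 was 0.33.

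Of the other genes called, Inmt, which methylates indoles and thioethers, was highest in rats 7 and 2 at 9.26 and 9.18 and lowest in rats 8 and 4 at 7.80 and 7.87. Slc25a30, a mitochondrial carrier, was highest in rat 2 at 8.84 and lowest in rat 4 at 7.11. Egr1, an immediate early transcription factor, ran from 6.27 in rat 3 to 8.20 in rat 4. Without rat 4 the SD of Slc25a30 and Egr1 was 0.49 each. These 3 genes shared no single order of rats.

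Lcn2 varied 10.5-fold. Its values were 8.47, 6.72, 6.45, 7.29, 6.53, 6.98, 6.69 and 9.84 (SD 1.19, 95% interval 0.787 to 2.42). Rat 8 was the highest and rat 1 next, and without rat 8 the SD was 0.70. Neutrophils also carry Lcn2. Of 10 measured neutrophil markers, the 9 other than Lcn2 had means of 3.94 to 6.67 and none was kept. S100a9 was 5.35 in rat 8 and 5.40 in rat 1, within the 5.28 to 5.48 of the rats other than rat 4, in which it was 6.36. In bulk tissue, fewer cells of a type and less RNA per cell cannot be told apart.

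Lbp, Stat3 and Cp were high in a different rat from Lcn2. Lbp, the lipopolysaccharide-binding protein, was 10.84 in rat 4 and 9.06 to 9.40 in the other 7 rats. Without rat 4 its SD fell from 0.58 to 0.14. Stat3, the transcription factor activated by interleukin-6, was 9.42 in rat 4 and 8.22 to 8.48 elsewhere. Cp, ceruloplasmin, the copper-carrying ferroxidase, was 13.12 in rat 4 and 12.19 to 12.55 elsewhere. S100a8, a neutrophil marker like S100a9, was 4.04 in rat 4 and 3.86 to 3.98 elsewhere, and the part of neutrophils in these values was not tested.

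Of 22 kept acute phase genes, 15 were highest in rat 4 (68.2%), against 11.8% of all genes. A2m, the rat acute phase protein alpha-2-macroglobulin, was below the limit on the mean, and it was highest in rat 8 at 7.19, with the others between 5.87 and 6.50. Limma's slope on Lcn2 found 0 of 5635 probe sets past an adjusted p of 0.05 (0%), and 332 at an unadjusted p below 0.05. The latter is close to the share of 0.05 that such a limit passes by chance. Rxra, the partner of many nuclear receptors, was among the most like Lcn2 at r = 0.917 (rho 0.881) and at 0.668 without rats 1 and 8.

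Hamp was steady outside rat 4. Its values were 12.41, 12.07, 12.36, 11.43, 12.24, 12.07, 12.18 and 12.11 (SD 0.30). Rat 4 was lowest, and without it the SD was 0.14. In that rat Stat3 and Lbp were at their highest. Limma's slope on Hamp found 0 probe sets past an adjusted p of 0.05 (0%). At an unadjusted p below 0.05 it found 709 of 5635, a share above the 0.05 that such a limit passes by chance. Without rat 4 that count was 299 of 5655, close to a share of 0.05. At the adjusted limit, leaving out rat 1 gave 4, leaving out rat 3 gave 1 and leaving out each other rat gave 0.

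Mt2A had the values 12.06, 11.01, 11.37, 12.19, 11.10, 11.82, 10.32 and 11.10 (SD 0.62). Rats 4, 1 and 6 were high and rat 7 was low, a span of 3.66-fold. Limma found 1 probe set following Mt2A (0.0177%), and it carries several gene symbols and is not named here. It did not pass without rat 7. Slc30a1, the zinc exporter that shares metal response with the metallothioneins, lay between 6.85 in rat 7 and 7.56 in rat 8. Of 14 kept genes of metal handling only Mt2A was called, where 0.748% of all genes were, and Slc31a1, the copper importer, had an SD of 0.11.

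Haem genes varied in separate patterns. Alas1, the first and rate-limiting enzyme of hepatic haem synthesis, had the values 10.25, 9.74, 10.50, 9.61, 10.35, 8.85, 8.86 and 9.30 (SD 0.65). Rats 6 and 7 were lowest, and rats 3, 5 and 1 highest. Alas2, its erythroid counterpart, had 7.97, 8.77, 8.41, 9.54, 9.69, 8.56, 8.43 and 8.70 (SD 0.58). Rats 4 and 5 were highest and rat 1 lowest, and Hbb, a haemoglobin beta chain of red cells and their precursors, was also highest in those rats at 13.67 and 13.61. Of 7 measured erythroid markers 4 were kept and all pairs among them had a positive r. Slc4a1 and Ahsp, defining markers of red cells, were below the limit. The part of red cells in the values was not tested.

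**Figure D4:**
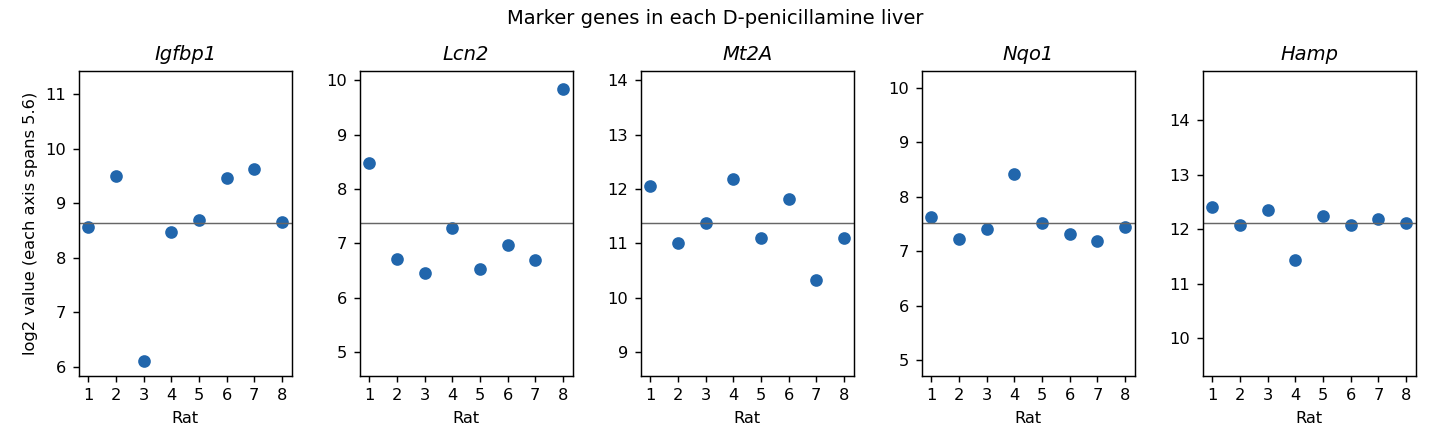
The log2 value of 5 marker genes in each of the 8 D-penicillamine rats, with the gene's mean as a line and every vertical axis spanning the same 5.6 log2 units. Rat 3 is low for Igfbp1, rats 8 and 1 are high for Lcn2, and rat 4 is high for Nqo1 and low for Hamp.

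Nqo1 was high in rat 4 alone. Its values were 7.62, 7.22, 7.40, 8.41, 7.52, 7.31, 7.19 and 7.45 (SD 0.39), and without rat 4 the SD was 0.16. By limma's slope on Nqo1, 644 of 5635 other probe sets passed an adjusted p of 0.05 (11.4%), of which 78 were higher with Nqo1 (1.38%) and 566 lower (10.0%). Without rat 4 the count was 0, with a smallest adjusted p of 0.112 and 1237 at an unadjusted p below 0.05. The passing of the 644 thus depended on rat 4. The 1237 were of 5655, a share above the 0.05 that such a limit passes by chance. With 1 rat fewer and a smaller spread of Nqo1, the count of 0 does not show that the relations were absent. With array medians centred 399 passed, of which 63 were higher and 336 lower. After a further quantile normalization 300 passed, of which 142 were higher and 158 lower. Leaving out each other rat gave 329 to 696, with the lowest counts of 329, 391 and 407 on leaving out rats 2, 3 and 6.

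**Figure D5:**
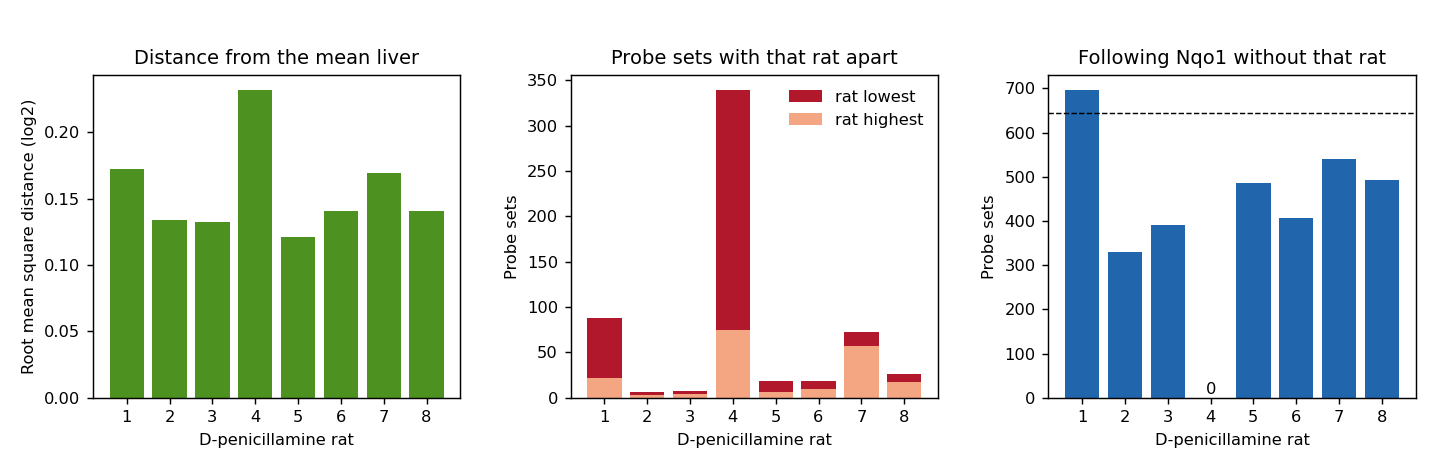
For each D-penicillamine rat 1 to 8: its root mean square distance from the mean liver on the log2 scale (left), the number of probe sets in which that rat stands apart from the others, as lowest (dark) or highest (light) (centre), and the number of probe sets following Nqo1 in limma when that rat is left out, with the count over all 8 rats, 644, as a dashed line (right). Rat 4 has the tallest bars at left and centre, and the right panel has 0 for it.

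Other NRF2 targets did not follow Nqo1 upwards. Of 23 kept besides Nqo1, 10 were lower with it and 0 higher. Over all 4409 other genes 432 were lower (9.80%) and 55 higher (1.25%). The median r of the NRF2 targets to Nqo1 was -0.70, against -0.37 over all genes. Without rat 4 the medians were -0.71 and -0.38. Gclm, the modifier subunit of the enzyme that limits glutathione synthesis, had the values 8.22, 9.10, 9.0, 7.84, 8.45, 9.01, 9.25 and 8.82 (SD 0.49).

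Rat 4 was lowest for Gclm and rat 1 next, which are the rats highest for Nqo1. The slope was -1.15 log2 per log2 of Nqo1 (SE 0.17, limma adjusted p = 0.00765), and r was -0.911 with rat 4 and -0.949 without it. Abcc2, which exports glutathione conjugates into bile, had a slope of -0.87 (SE 0.16, limma adjusted p = 0.0123). Hmox1, haem oxygenase 1, varied little, from 7.56 to 7.74.

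Among all genes Slco1a4, the transporter named above, had a slope on Nqo1 of -1.03 (SE 0.10, limma adjusted p = 0.00369). Its level was 9.97 in rat 4 and 10.82 to 11.27 in the others. Ehhadh, a peroxisomal enzyme of fat oxidation, was 8.86 in rat 4 and 9.74 to 10.04 elsewhere, and Hal, histidine ammonia-lyase, was 8.93 against 9.93 to 10.30. On the higher side, Lbp had a slope of 1.33 (SE 0.21, limma adjusted p = 0.00843) and C4bpb, a chain of the complement regulator C4b-binding protein, 0.66 (SE 0.09, limma adjusted p = 0.00563). Without rat 4 their r to Nqo1 was -0.08 and 0.63.

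Several lists of hepatocyte genes had many of their lowest values in rat 4, and others did not. Of all genes 34.3% had their lowest value in that rat. The share was 76.9% of 13 periportal hepatocyte markers, 76.2% of 21 genes of sulfur amino acid metabolism, and 66.7% each of 24 cytochrome P450 and 12 PPARA target genes. Of 13 pericentral hepatocyte markers it was 23.1%. Those lower with Nqo1 numbered 4 of the periportal, 7 of the sulfur amino acid, 9 of the P450, 5 of the PPARA and 0 of the pericentral genes, against 9.80% of all genes. Cps1, of the urea cycle, was 12.14 in rat 4 and 12.47 to 12.67 elsewhere, and Cyp2j3, a P450 epoxygenase, was 8.51 against 9.19 to 9.72.

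The lists' median r to Nqo1 moved when rat 4 was left out. It went from -0.77 to -0.41 for the P450 genes, from -0.78 to -0.48 for PPARA targets, from -0.79 to -0.20 for sulfur amino acid genes and from 0.71 to 0.17 for acute phase genes. For the periportal markers it turned from -0.67 to 0.42. Cyp1a2, a pericentral P450, was not among the low ones, with 12.00 in rat 4 and 11.40 to 12.08 in the others. The 3' minus 5' difference of the array's Gapdh and Actb control probe sets, a sign of RNA integrity and labelling, was highest in rat 4 at 0.605 and 0.430 to 0.565 in the others. The part of RNA quality in the position of rat 4 was not tested.

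The endoplasmic reticulum stress list had 12 of its 21 kept genes (57.1%) highest in rat 4, against 11.8% of all genes. Creld2, a secretory-pathway chaperone gene induced by that stress, was 9.85 in rat 4 and 8.58 to 9.40 elsewhere. Herpud1, part of the degradation machinery of that compartment, was 10.02 in rat 4 and 9.99 in rat 3, with rat 1 lowest at 8.88. The list's mean deviation was 0.24 in rat 4, 0.17 in rat 3 and -0.30 in rat 1. None of the 21 passed in limma's slope on Nqo1, where 1.25% of all genes were higher and 9.80% lower.

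Over all probe sets kept, 575 had 1 rat apart from the rest by Dixon's gap criterion for 8 values (10.2%). Rat 4 was that rat in 339 (59.0%), of which it was highest in 75, and rat 1 in 88. Without rat 4, 7.16% of 5656 probe sets had such a rat by the criterion for 7 values.

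The 5 markers did not vary as 1 set. None of their 10 pairs passed an adjusted p of 0.05 by exact permutation. The smallest p was that of Nqo1 and Mt2A, at r = 0.691 (exact permutation p = 0.0479, adjusted p = 0.479) and rho = 0.778 (adjusted p = 0.156), with r = 0.401 without rats 4 and 7. The largest r in size was that of Nqo1 and Hamp, -0.737 (rho 0.084, exact permutation p = 0.118, adjusted p = 0.589). It was 0.665 without rat 4 and 0.745 without rats 4 and 7. Igfbp1 and Nqo1 had r = -0.201 and rho -0.738 (adjusted exact permutation p of 0.885 and 0.156). Lcn2 and Hamp had r = 0.0156 over 8 rats and -0.935 without rats 1 and 8, so their relation rests on which rats are counted.

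The quietest genes were Serpina1, alpha-1-antitrypsin, with an SD of 0.016 and values from 13.83 to 13.88, and Crlf3, a cytokine receptor-like gene, with 0.019. Cytosolic ribosomal protein genes had a median SD of 0.0774 over 21 kept, and the respiratory chain 0.0954 over 32. No gene of either list was called, where 0.748% of all genes were. Serpina1 and Crlf3 were picked for the lowest SDs among 4410 genes, whose median was 0.116.

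Markers and principal components were set against the arrays' own measures. All arrays came from 1 chip lot and 1 scan day, and the order of scanning followed the rat number except that rat 7 preceded rat 6. Of 14 relations of the 5 markers and 2 components with the 3' minus 5' difference and the scan order, none passed an adjusted p of 0.05 by exact permutation. The nearest was Hamp with the 3' minus 5' difference, at r = -0.663 (rho -0.671, p = 0.0540, adjusted p = 0.688, and r = 0.203 without the 2 farthest rats). Without rat 3 it was -0.870 (adjusted exact permutation p = 0.0444), and without rat 1 the relation of Mt2A with that difference was 0.904 (adjusted p = 0.0333). By rho the adjusted exact permutation p was 0.211 and 0.189. Both were picked from runs that left out each rat in turn, with p adjusted over the 14 relations of a run only.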

How the data were processed

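RNA of 8 D-penicillamine rats was measured on 1 array each, and the labels name individual rats, so arrays are biological replicates. The deposited log2 values, 15923 probe sets to 2 decimals, were made by the authors with RMA per the submitters' processing notes, and its version is not given in the sources used here. RMA equalises arrays, so a shift of most transcripts could not be seen, and it gives no detection call. The deposited scan records (other values, per the file headers) gave lot, day and order. The 57 controls were left out and a mean of 7 was required.

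Symbols came from the platform annotation, and 0 were changed by the GRCr8 gene table. SDs, correlations with exact permutation over all pairings of the rats, groups by average linkage at r of 0.8 with at least 3 genes, and motif counts were computed in Python 3.11.15 with scipy 1.17.1. Slopes on each marker were fitted over all probe sets kept with lmFit and eBayes in limma 3.58.1 (R 4.3.3), two-sided, with Benjamini-Hochberg adjustment at 0.05. The fit was tested on simulated data with independent normal values for each probe set and slopes planted on Igfbp1 only. That test does not cover correlated genes or the fit on Nqo1. Named genes are the markers, the 25 of largest SD, the 6 most and least like each marker, up to 10 passing limma, the 3 of largest SD per list, the 10 quietest, group members and members of the clock, metal, NRF2, acute phase, iron and fasting lists. Further genes called, genes just outside the SD limit and other list members were named after their values were seen. The members, markers and lists were chosen with earlier results of these data known. Alternatives changed the limit on the mean, scaling, the measure of spread, covariates and the rats included.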

Additional observations from a re-analysis of the deposited data

Results flagged for a closer look

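Of 45 genes whose values were checked rat by rat, 11 had 1 rat apart from the other 7 by Dixon's criterion. That is a gap to the nearest rat of more than 0.526 of the whole range. Chance alone marks about 1 in 20 groups, and over all probe sets kept the share was 10.2%. The 45 were chosen partly for their spread, so their share is not set against that. In 9 of the 11 the rat was rat 4. It was highest for Lbp, with a gap of 0.809 of the range, Stat3 with 0.783, Nqo1 with 0.648 and Cp with 0.613. It was lowest for Ehhadh with 0.746, Hal with 0.730, Slco1a4 with 0.654, Hamp with 0.653 and Hsd17b2 with 0.537. Rat 3 was lowest for Igfbp1, with a gap of 0.670. Rat 8 was highest for Pde4b, a cAMP phosphodiesterase, with 0.553, at 8.50 against 6.62 to 7.46 in the others.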

How the results depend on the processing

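Of 320 alternative values, 281 stayed within the limits set for a change, 28 moved and 11 changed sign. The median r to Nqo1 of the periportal markers was 0.42 without rat 4. The other 10 concern marker pairs, none of which passed a test. Leaving out each rat gave r of -0.858 to 0.665 for Nqo1 and Hamp, -0.646 to 0.365 for Mt2A and Hamp, -0.662 to 0.205 for Igfbp1 and Hamp, -0.525 to 0.174 for Igfbp1 and Lcn2, -0.579 to 0.0014 for Igfbp1 and Mt2A and -0.159 to 0.135 for Lcn2 and Hamp. The last was -0.025 with array medians centred and -0.392 with the 3' minus 5' difference taken out, which gave -0.060 for Igfbp1 and Lcn2. Some large changes of r that kept its sign were counted among the 281. With that difference taken out, r went from 0.147 to 0.441 for Nqo1 and Lcn2. It went from -0.224 to -0.592 for Igfbp1 and Hamp and from -0.350 to -0.095 for Mt2A and Hamp. Probe sets with an SD of at least 0.5 numbered 21 at a mean of at least 9. The count following Nqo1 was 1020 at a mean of at least 5, 243 at 9, 399 with array medians centred and 300 after further quantile normalization, and leaving out each rat gave 0 to 696. With the 3' minus 5' difference in the fit it was 678, and the count following Mt2A was 2. Leaving out each rat gave 0 to 1 for Mt2A, 0 to 4 for Hamp and 0 to 1 array relations past the threshold. Pairs of called genes past the threshold numbered 0 by Spearman's rho. The causes were not tested, beyond fewer or more probe sets at another limit. The alternatives for the groups, lists and pairs were chosen after seeing the data. By the median absolute deviation the spread of Igfbp1, Lcn2, Nqo1 and Hamp was 0.74, 0.53, 0.23 and 0.13. No paired analysis was possible because no groups were compared: the rat numbers shared with vehicle rats enter no test here. The number of arrays, 8, limits precision.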
